A study of Homo sapiens with 6 samples.

Results

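Clustered replication-dependent histone genes were examined in a human neuroblastoma cell line, IMR-32, labelled as wild type, after PTC-028 or its solvent. PTC-028 is an inhibitor of the Polycomb protein BMI1. Cells had 24 h in the wells and then received DMSO, or PTC-028 at 25 nM, for 24 h, and each group had 3 libraries of poly(A)-selected RNA. The members are 69 of the 22826 genes in the deposited table. Their symbols name a core or linker histone of the HIST1, HIST2, HIST3 or HIST4 locus and carry no PS suffix. The members comprised 4 H1, 16 H2A, 21 H2B, 14 H3 and 14 H4 genes. By the locus named in the symbol, 50 were HIST1 genes, 14 HIST2, 4 HIST3 and 1, HIST4H4, was of HIST4. The HIST1 genes lie on chromosome 6, the HIST3 genes on chromosome 1 and HIST4H4 on chromosome 12. The HIST2 genes with a position lie on chromosome 1, where HIST2H2BA and HIST2H3DP1 start at 121108210 and 121118195, far from the rest. Of the 69 members, 64 are annotated as protein-coding in GENCODE 29. The others are HIST2H2BA, HIST2H3DP1 and HIST3H2BA, annotated as pseudogenes, and HIST2H2BC and HIST2H2BD, whose identifiers have no model on the primary assembly.

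Replication-dependent histone genes supply the histones that package new DNA, and their mRNA is made mainly in S phase. Most of this mRNA ends in a stem-loop that is bound by SLBP (stem-loop binding protein) and has no poly(A) tail. Some of the same genes also give polyadenylated transcripts that run past the stem-loop or splice around it, a form known from cells that have left the cycle or differentiate. Poly(A) selection therefore reads mainly the polyadenylated form and whatever tail-less RNA was carried over, so the values are not the total histone mRNA.

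The stem-loop is shown because the form without a poly(A) tail ends at it, while the polyadenylated form runs past it or splices around it. A stem-loop in a transcript does not by itself tell these forms apart. A script searched the GENCODE 29 transcripts for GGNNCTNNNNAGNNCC, where N is any base and the stem has to pair throughout, and a loop that departs from this pattern would be missed. It was found in 31 members, in 5 versions. The lines below give 7 of these members with the 16 bases of the stem-loop in capitals, in the sense of the mRNA.
HIST2H2BE (chr1:149886188-149886203, minus strand): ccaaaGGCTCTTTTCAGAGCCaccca
HIST1H2AC (chr6:26124669-26124684, plus strand): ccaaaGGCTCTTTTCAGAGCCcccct
HIST3H2A (chr1:228457369-228457384, minus strand): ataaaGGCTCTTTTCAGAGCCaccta
HIST1H2BD (chr6:26158587-26158602, plus strand): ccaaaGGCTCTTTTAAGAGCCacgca
HIST2H4B (chr1:149860769-149860784, minus strand): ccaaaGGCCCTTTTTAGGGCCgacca
HIST1H4I (chr6:27139654-27139669, plus strand): aaaaaGGCCCTTTTTAGGGCCcctaa
HIST1H4J (chr6:27824459-27824474, plus strand): taaaaGGCCCTTTTCAGGGCCaccct
The version with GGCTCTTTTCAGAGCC was the most frequent, in 17 members of the H2A, H2B and H3 classes. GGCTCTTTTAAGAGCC occurred in 5 members, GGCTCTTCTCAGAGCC in HIST1H3E, and the H4 genes carried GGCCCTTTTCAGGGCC (5 members) or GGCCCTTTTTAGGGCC (3 members). The stretch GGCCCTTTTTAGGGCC was carried by HIST1H4I, HIST2H4A and HIST2H4B.

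Many H2A and H2B genes lie head to head and share the DNA between their starts. The windows from 250 bases before to 50 bases after the start of 3 members with higher values under PTC-028 are shown to let this arrangement be read. Capitals mark matches on either strand to the TATA box, read as TATAAA. They also mark CCAAT boxes on either strand. The octamer of H2B promoters, read as ATTTGCAT on either strand, is marked as well. Marked stretches may overlap each other, a match is a description and not a shown binding site, and the windows come from RefSeq (GRCh38.p14), in the sense of the named gene.
HIST1H2BK (chr6:27146806-27147105, minus strand): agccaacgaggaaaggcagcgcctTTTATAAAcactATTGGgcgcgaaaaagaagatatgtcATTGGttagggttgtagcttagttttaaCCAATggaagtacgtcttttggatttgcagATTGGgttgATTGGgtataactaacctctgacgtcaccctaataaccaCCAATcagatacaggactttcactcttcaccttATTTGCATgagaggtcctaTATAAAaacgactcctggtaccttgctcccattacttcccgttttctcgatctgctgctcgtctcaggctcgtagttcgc
HIST1H2AC (chr6:26123922-26124221, plus strand): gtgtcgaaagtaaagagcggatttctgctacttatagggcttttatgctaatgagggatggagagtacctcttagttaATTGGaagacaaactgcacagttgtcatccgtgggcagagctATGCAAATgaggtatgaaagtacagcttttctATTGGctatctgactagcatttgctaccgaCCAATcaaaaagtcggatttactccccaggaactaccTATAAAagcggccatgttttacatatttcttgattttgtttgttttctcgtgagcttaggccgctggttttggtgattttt
HIST2H2BE (chr1:149886633-149886932, minus strand): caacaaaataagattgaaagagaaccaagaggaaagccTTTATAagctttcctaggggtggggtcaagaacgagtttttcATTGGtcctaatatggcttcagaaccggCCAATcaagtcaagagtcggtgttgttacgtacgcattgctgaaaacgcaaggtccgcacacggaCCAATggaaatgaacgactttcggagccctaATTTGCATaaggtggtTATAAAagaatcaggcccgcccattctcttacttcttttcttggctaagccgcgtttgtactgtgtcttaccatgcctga
Windows were found for 59 members. ATTTGCAT was present in 13 of 17 H2B and 10 of 15 H2A windows and in none of the 4 H1, 11 H3 and 12 H4 windows, against 1.8% of 27305 windows over all genes. CCAAT was present in 49 of the 59 windows, but in 2 of the 12 H4 windows, against 35.7% of all windows, and TATAAA in 40 of 59 against 12%. Windows of head-to-head neighbours overlap, so they are not independent.

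Values are TPM, a relative transcript abundance per length, as the authors deposited them. TPM keeps no read depth, and the libraries summed to between 999990 and 999999 and held between 13311 and 13723 genes at 1 TPM or more. Neuroblastoma markers were present, with HAND2 at mean levels of 498 and 534 TPM under DMSO and PTC-028, and DBH at 4.10 and 3.86 TPM. Summed TPM was between 3.58 and 6.98 for 4 leukocyte genes, between 0.411 and 1.78 for 4 epithelial genes, between 0.619 and 1.70 for 4 endothelial genes, and between 20.75 and 25.7 for 5 fibroblast genes. Whether the 3 libraries of a group came from separate cultures is not stated, so p-values measure the spread between libraries only.

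Clustered histone genes were rare transcripts here. Together the 69 genes took between 0.0320% and 0.0353% of all TPM under DMSO and between 0.0441% and 0.0475% under PTC-028. Of the members, 9 had a mean of 10 TPM or more over all libraries, 46 lay between 1 and 10 TPM and 14 were below 1 TPM. HIST1H2BK, an H2B gene, and HIST1H4J, an H4 gene, led the list with means of 61.7 and 57.5 TPM, and together held between 26.9% and 31.95% of the members' TPM in each library. HIST3H2A, HIST1H4K, HIST2H2AC, HIST2H2AA4, HIST1H2BD, HIST1H1C and HIST2H4A followed, between 25.6 and 11.0 TPM. Among H3 genes the most abundant were HIST1H3F, HIST1H3C and HIST1H3J, at 6.60, 6.24 and 5.25 TPM over all libraries.

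The comparison of PTC-028 with DMSO was tested with limma on log2(TPM + 1) for genes with at least 1 TPM in at least 3 libraries, over 13552 genes. Of the 69 members, 55 could be tested, and passing means a Benjamini-Hochberg adjusted p below 0.05 over all of these genes. In PTC-028, 10 members rose: HIST1H1C of the linker class, HIST1H2AC, HIST2H2AA4 and HIST3H2A of H2A, HIST1H2BD, HIST1H2BJ, HIST1H2BK and HIST2H2BE of H2B, and HIST1H4I and HIST2H4B of H4. Over all genes tested, 2.1% passed, 1.01% as higher and 1.09% as lower. None of the 55 tested members passed as lower in limma, and 2 were lower at an unadjusted p under 0.05, HIST1H3F and HIST2H2AC. The share of all genes tested at that unadjusted p is not given here, so such counts, here and below, are description only. The median log2 fold change was 0.38 over the tested members and 0.33 over all 69, against 0.03 over all genes tested. In bulk RNA, a change in how many cells express a gene and a change in RNA per cell cannot be told apart. Leaving out DMSO replicate 1 or PTC-028 replicate 2 left 4 members that passed as higher, and leaving out PTC-028 replicate 1 left 5. Testing without the filter on low values left 4.

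The groups did not overlap, with PTC-028 higher, for 22 of the 55 tested members, against 13.6% of all genes tested. With PTC-028 lower this held for 1 member, HIST1H3F, against 10.7% of all genes tested. The filter favours some of these members: 43 of the 55 reached 1 TPM in all 6 libraries, while 5 did so in at most 1 DMSO library and 1 in at most 1 PTC-028 library.

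**Figure D1:**
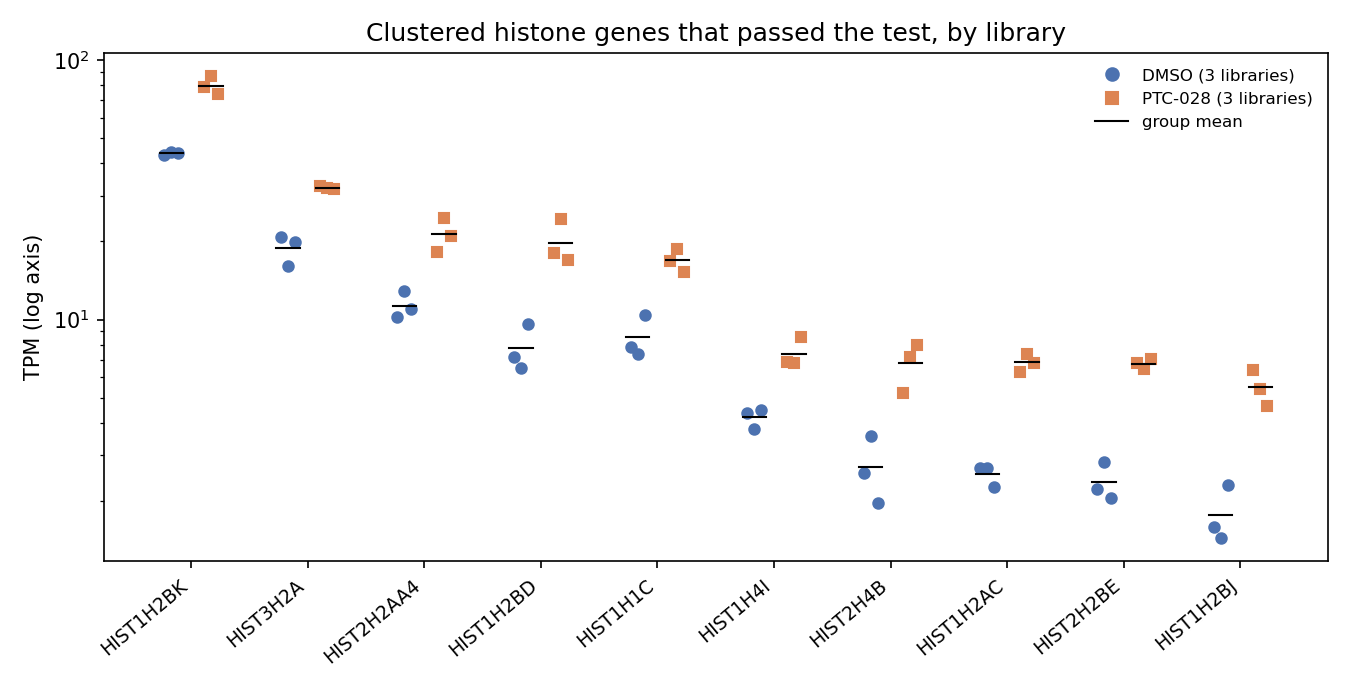
TPM on a log axis of the 10 clustered histone genes that passed the test, with a circle for each DMSO library, a square for each PTC-028 library and a line at each group mean. In each gene the 3 PTC-028 libraries lie above the 3 DMSO libraries.

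H2B genes, which encode a core histone that pairs with H2A in the nucleosome, held 4 of the 10 rises. HIST1H2BK (chromosome 6, 27146418 to 27146798, GRCh38) had 43.2, 44.2 and 43.8 TPM in the DMSO libraries and 78.6, 86.7 and 73.9 TPM in the PTC-028 libraries. The DMSO libraries lay within about 1 TPM of each other and all PTC-028 libraries were far above them, for a mean of 43.7 ± 0.519 against 79.7 ± 6.49 TPM (SD, n = 3 each). Its log2 fold change was 0.85 ± 0.07 (SE; limma adjusted p = 0.00156). HIST1H2BD (chromosome 6, 26158146 to 26171349) had 7.18, 6.49 and 9.63 TPM under DMSO and 18.1, 24.3 and 17.0 TPM under PTC-028. The groups were apart, with a log2 fold change of 1.25 ± 0.17 (SE, limma adjusted p = 0.0110). HIST1H2BD did not pass when DMSO replicate 1 was left out, nor without the filter on low values. Its annotation holds a transcript of 496 bases with the stem-loop and a spliced one of 789 bases without it. An antisense transcript (AL353759.1) overlaps the gene.

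HIST2H2BE (chromosome 1, 149884459 to 149886652) had 2.23, 2.83 and 2.06 TPM under DMSO and 6.78, 6.46 and 7.03 TPM under PTC-028. This was a ratio of means of 2.85, and the log2 fold change was 1.21 ± 0.13 (SE; limma adjusted p = 0.00541). Its annotated transcript runs 1729 bases past the stem-loop shown above. HIST1H2BJ (chromosome 6, 27125897 to 27132750) had 1.59, 1.44 and 2.30 TPM under DMSO and 6.41, 5.38 and 4.65 TPM under PTC-028. Its ratio of means, 3.09, was the highest of the 10 genes (limma adjusted p = 0.0119). HIST1H2BJ missed the threshold without the filter on low values, nor when DMSO replicate 1 or either of PTC-028 replicates 1 and 2 was left out. HIST1H2BH, the third most abundant H2B gene, was at 8.32 ± 1.16 TPM under DMSO and 8.47 ± 0.960 TPM under PTC-028 (SD, n = 3 each), with overlapping groups and a 95% interval of the log2 fold change from -0.28 to 0.33.

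Of the 15 tested H2B genes, 14 had a log2 fold change above 0, against 57.6% of all genes tested, and the median was 0.54. Over all 21 the median was 0.40. The filter kept HIST2H2BD and HIST2H2BF, which reached 1 TPM in at most 1 DMSO library, and left out HIST1H2BI, at 1.52, 0.749 and 2.16 TPM under DMSO and 0.346, 0.335 and 0.333 TPM under PTC-028, with no overlap. HIST2H2BF and HIST1H2BI were named after their values were seen. In the whole class the summed TPM was 88.3, 88.7 and 89.3 in DMSO and 152, 179 and 144 in PTC-028. With the 4 genes that rose left out, the other 17 H2B genes summed to 33.1 ± 1.41 TPM under DMSO and 46.5 ± 8.29 TPM under PTC-028 (SD, n = 3 each). Part of this remainder was HIST2H2BD, at 0.314, 2.46 and 0.709 TPM under DMSO and 5.32, 6.98 and 3.20 TPM under PTC-028, which did not pass (limma adjusted p = 0.0798) and was named after its values were seen.

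H2A genes, the partners of H2B, held 3 rises. HIST3H2A (chromosome 1, 228456979 to 228457873) had 20.9, 16.1 and 19.8 TPM under DMSO and 32.6, 32.0 and 32.0 TPM under PTC-028, and its log2 fold change was 0.74 ± 0.10 (SE; limma adjusted p = 0.0105). The PTC-028 libraries were almost level and all above DMSO, and the call was lost without PTC-028 replicate 1 or 2. HIST1H2AC (chromosome 6, 26124145 to 26139116) had 2.67, 2.67 and 2.27 TPM under DMSO and 6.30, 7.40 and 6.81 TPM under PTC-028. The groups were apart, and the log2 fold change was 1.15 ± 0.12 (SE; limma adjusted p = 0.00509). HIST2H2AA4 (chromosome 1, 149851061 to 149851624) had 10.2, 12.9 and 10.9 TPM under DMSO and 18.3, 24.6 and 21.0 TPM under PTC-028 (limma adjusted p = 0.0175). It did not pass when DMSO replicate 1 or either of PTC-028 replicates 2 and 3 was left out, nor without the filter on low values. Its near-identical copy HIST2H2AA3 was listed at 0 in 5 of the 6 libraries, so how reads were shared between the copies is uncertain, and their sum was 11.45 ± 1.33 TPM under DMSO and 21.3 ± 3.20 TPM under PTC-028.

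HIST2H2AC, the second most abundant H2A gene, did not pass. It had 19.4, 23.3 and 21.7 TPM under DMSO and 19.5, 17.0 and 16.9 TPM under PTC-028, with groups that overlapped and a log2 fold change of -0.26 (limma adjusted p = 0.232). HIST1H2AJ, among the 3 lowest log2 fold changes of the tested members, was at 4.76 ± 1.08 and 3.17 ± 0.871 TPM (SD, n = 3 each), with limma adjusted p = 0.287. The 13 H2A genes other than the 3 that rose summed to 54.7, 49.5 and 54.6 TPM under DMSO and 53.5, 50.5 and 54.4 TPM under PTC-028.

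Of the 4 linker histone genes, 3 were tested and HIST1H1C rose. HIST1H1C (chromosome 6, 26055787 to 26056428) had 7.85, 7.35 and 10.4 TPM under DMSO and 16.8, 18.7 and 15.3 TPM under PTC-028. The groups did not overlap, with a log2 fold change of 0.92 ± 0.14 (SE; limma adjusted p = 0.0170). It did not pass when DMSO replicate 1 or either of PTC-028 replicates 1 and 2 was left out, nor without the filter on low values. HIST1H1B and HIST1H1E stayed under 3 TPM in every library, overlapped between groups and did not pass (limma adjusted p = 0.706 and 0.614).

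H4 genes, which encode the partner of H3, included the abundant HIST1H4J and HIST1H4K, and neither passed. HIST1H4J had 61.2, 57.5 and 62.9 TPM under DMSO and 67.7, 51.1 and 44.6 TPM under PTC-028, and its log2 fold change was -0.17 with a 95% interval from -0.48 to 0.14. HIST1H4K had 25.7, 19.6 and 23.7 TPM under DMSO and 12.7, 12.7 and 27.8 TPM under PTC-028, so that PTC-028 replicate 3 was above every DMSO library and the other PTC-028 libraries were below them. Without that library HIST1H4K was lower in PTC-028 (log2 fold change -0.80, limma adjusted p = 0.0418). HIST1H4A was at 4.43, 3.37 and 2.23 TPM under DMSO and at 3.13, 0 and 5.31 TPM under PTC-028, with overlapping groups.

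The H4 genes that rose were HIST2H4B and HIST1H4I. HIST2H4B (chromosome 1, 149854045 to 149861210) had 2.57, 3.56 and 1.97 TPM under DMSO and 5.20, 7.17 and 7.97 TPM under PTC-028 (limma adjusted p = 0.0384). Its near-identical copy HIST2H4A had 6.10, 8.72 and 8.84 TPM under DMSO and 17.1, 15.5 and 9.85 TPM under PTC-028 and did not pass (limma adjusted p = 0.127). The sum of both copies was 8.68, 12.3 and 10.8 TPM under DMSO and 22.3, 22.7 and 17.8 TPM under PTC-028. Their annotated models differ in length, so this sum can still move with how reads were shared between them. HIST2H4B also overlaps HIST2H3A in GENCODE 29, and HIST2H2AA4 lies within the span that RefSeq gives to HIST2H4B. HIST1H4I (chromosome 6, 27138588 to 27139881) had 4.38, 3.80 and 4.50 TPM under DMSO and 6.84, 6.78 and 8.56 TPM under PTC-028 (limma adjusted p = 0.0423). It lies within the span that RefSeq gives to HIST1H2BK (chromosome 6, 27138293 to 27146858), on the other strand, and the sources used here do not say that reads were counted by strand, so HIST1H4I may hold reads of longer HIST1H2BK transcripts, which was not tested. The GENCODE 29 model of HIST1H2BK does not overlap HIST1H4I. HIST1H4I did not pass whichever library was left out (limma adjusted p up to 0.149), nor under median ratio scaling or quantile normalisation, and HIST2H4B did not pass for 5 of the 6 libraries left out, DMSO replicate 2 being the exception (limma adjusted p up to 0.140). The 12 other H4 genes summed to 110.1 ± 9.72 TPM under DMSO and 109.5 ± 11.8 TPM under PTC-028.

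No H3 gene passed. Of the 11 tested, 0 passed in limma and 3 had an unadjusted p under 0.05, and the median log2 fold change was 0.25. Of these 3, HIST1H3F was lower, while HIST2H3C and HIST1H3H were higher without overlap between groups. HIST2H3C and HIST1H3H had log2 fold changes of 0.75 and 0.41 (limma adjusted p = 0.0971 and 0.206). Both were named after their values were seen. HIST1H3F had 9.72, 7.72 and 7.10 TPM under DMSO and 6.27, 4.96 and 3.86 TPM under PTC-028. All PTC-028 libraries were below all DMSO libraries, and its log2 fold change of -0.62 ± 0.18, the lowest of the tested members, did not pass (SE; limma adjusted p = 0.133). HIST1H3C was at 6.63 ± 1.07 and 5.85 ± 0.464 TPM and HIST1H3J at 4.83 ± 2.41 and 5.66 ± 0.413 TPM under DMSO and PTC-028 (SD, n = 3 each), both with overlapping groups. Whether H3 differed from H2B in its response was not tested.

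**Figure D2:**
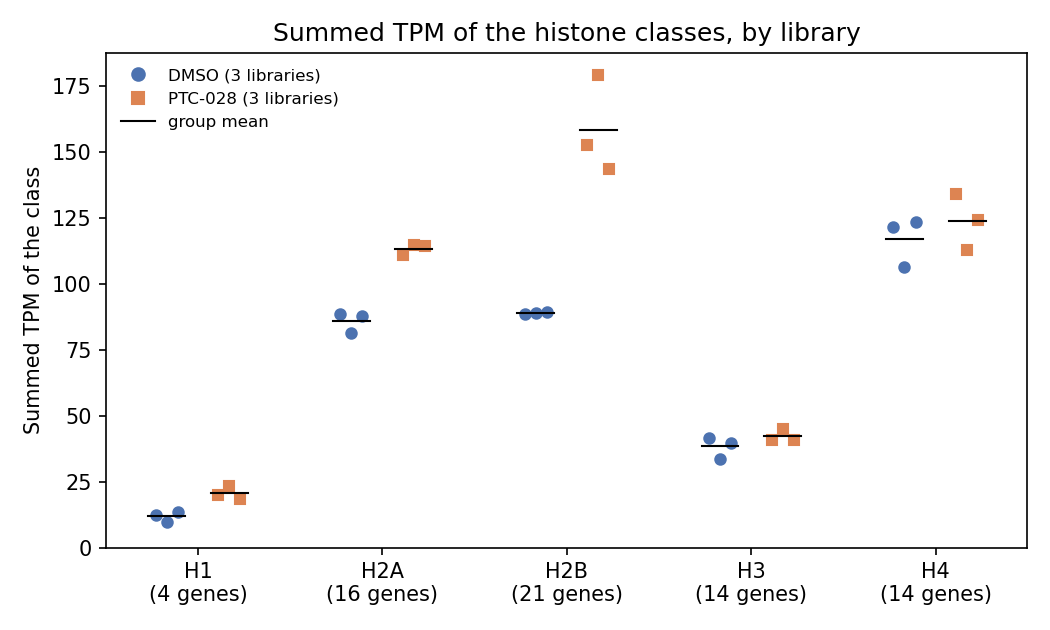
Summed TPM of the 5 histone classes, with a circle for each DMSO library, a square for each PTC-028 library and a line at each group mean. The H2B sums in PTC-028, between 144 and 179 TPM, lie well above the DMSO sums of 88.3 to 89.3 TPM, while the H3 and H4 sums of the groups overlap.

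By class, the mean summed TPM under PTC-028 was 1.78 times that in DMSO for H2B, 1.74 times for H1, 1.32 times for H2A, 1.10 times for H3 and 1.06 times for H4. Sums over the members are given without a test. H2B made up 26.0% of the members' TPM on average in DMSO and 34.5% in PTC-028, and H4 made up 34.2% and 27.1%. By abundance under DMSO, 3 of the 6 members at 10 TPM or more rose, 7 of the 44 tested members between 1 and 10 TPM and 0 of the 5 tested members below 1 TPM. The 14 members with a mean below 1 TPM over all libraries were not tested, and their median log2 fold change was 0.21 on a scale that understates changes at such levels. By locus, 3 of the 11 tested HIST2 genes rose and 6 of the 42 tested HIST1 genes. HIST3H2A was the 1 tested HIST3 gene, and HIST4H4 was at 1.85 ± 0.800 and 1.89 ± 0.917 TPM under DMSO and PTC-028.

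**Figure D3:**
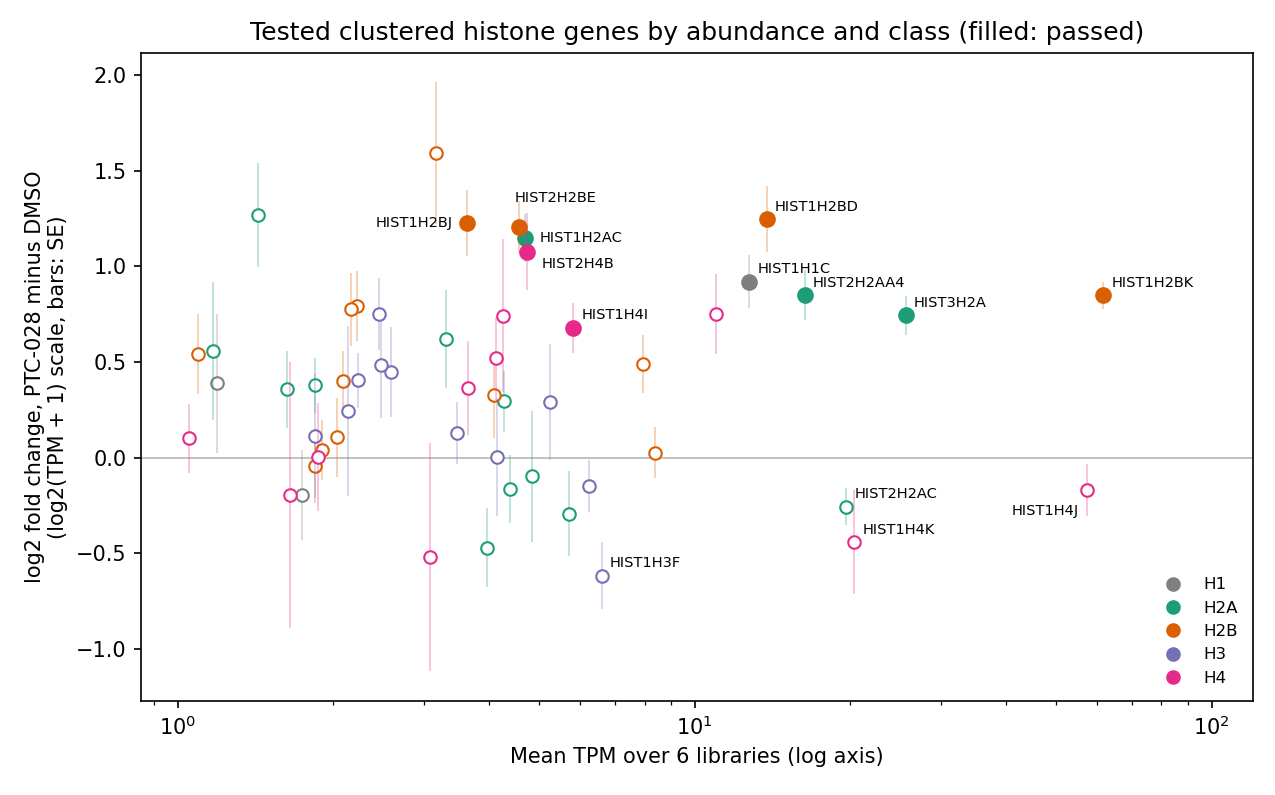
Log2 fold change of the 55 tested members against mean TPM over the 6 libraries on a log axis, coloured by class, with bars for the standard error and filled points for the 10 genes that passed. The filled points lie between 0.68 and 1.25, while the abundant HIST1H4J, HIST1H4K and HIST2H2AC lie below 0.

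Annotated transcript models differed among members and are set beside the fold changes as a description. Models of 21 members ran at least 100 bases past the stem-loop and those of 10 ended within 100 bases of it. Another 29 had a model of coding sequence only and 7 had other models without the pattern. A member with the stem-loop was placed by the transcript that runs furthest past it. HIST1H2BE, HIST1H2BN, HIST1H3E and HIST1H4H, placed as running past it, also have a transcript that ends 1, 5, 5 and 18 bases past it. Some, such as HIST1H2AC and HIST2H2BF, also have a transcript without it. Of the tested members whose models ran past the stem-loop, 5 of 18 rose, the median log2 fold change was 0.61 and all 18 values were above 0, against 57.6% of all genes tested. Of those with coding sequence only, 2 of 24 rose, HIST1H1C and HIST1H2BK, and 12 were above 0, with a median of -0.02. Of those that ended near the stem-loop, 2 of 6 rose, HIST2H2AA4 and HIST1H2BD. Only transcripts that hold the stem-loop set this group, and HIST1H2BD also has a spliced transcript of 789 bases without it. The model sets which reads a TPM counts and by which length they are divided, so it was not separate from the measurement, and its part in the result was not tested. The annotation that the authors counted with is not given in the sources used here.

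**Figure D4:**
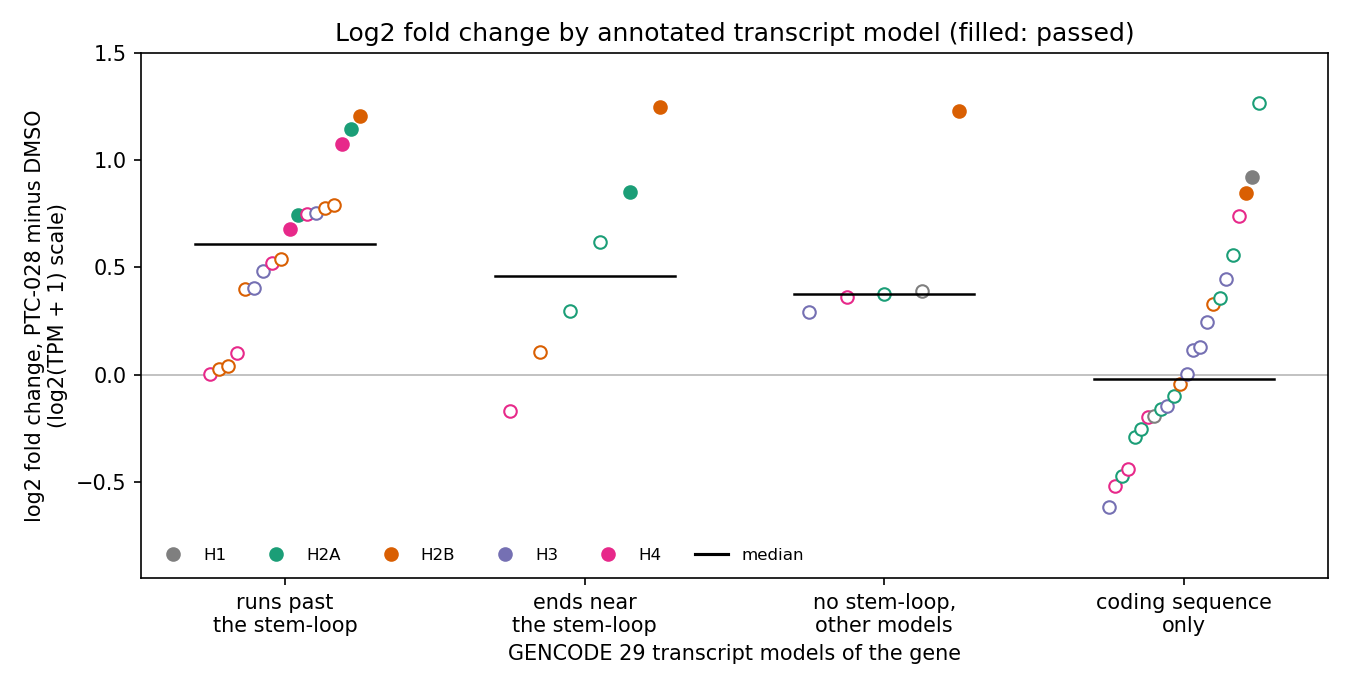
Log2 fold change of the tested members that have a GENCODE 29 model, grouped by model, with a line at each median and filled points for genes that passed. Genes with the stem-loop were placed by the transcript that runs furthest past it, and some also have shorter transcripts. Medians are 0.61 for models that run past the stem-loop, 0.46 for those that end near it, 0.38 for other models without the pattern and -0.02 for coding sequence only. The group that ends near it includes HIST1H2BD, which also has a spliced transcript without the stem-loop.

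Head-to-head neighbours were compared to see whether genes that share an upstream region moved together. There were 11 such pairs, with starts 219 to 357 bases apart. In 5 of them a member rose, and in none did both, which does not show that neighbours moved apart. The 2 log2 fold changes had opposite signs for HIST2H2BE and HIST2H2AC, for HIST1H2BK and HIST1H2AH, and for HIST1H2AM and HIST1H2BO. In the other pairs the signs were the same. HIST1H2BG and HIST1H2AE, named after their values were seen, were at 0.79 and 0.62, and neither passed (limma adjusted p = 0.0768 and 0.262). HIST2H2BE rose while its neighbour HIST2H2AC went from 21.5 to 17.8 TPM on average and did not pass. HIST1H2AC rose while HIST1H2BC, 219 bases away, was at 1.85 ± 0.232 and 1.94 ± 0.316 TPM (SD, n = 3 each). HIST1H2BK rose as well, and HIST1H2AH was at 5.14 ± 2.54 and 4.56 ± 1.71 TPM. HIST1H2BJ rose while HIST1H2AG, at 1.48 and 2.22 TPM on average, did not pass (limma adjusted p = 0.227). HIST3H2A rose by a ratio of means of 1.70, and HIST3H2BB, below 1 TPM in every library and not tested, had 0.322, 0.271 and 0.406 TPM under DMSO and 0.648, 0.740 and 0.496 TPM under PTC-028. The groups of HIST3H2BB did not overlap and its ratio of means was 1.88, so these neighbours did not move apart in TPM.

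The difference within each pair was tested on log2(TPM + 1), as the first gene minus the second, with a 2-sided exact permutation test. With 3 libraries against 3 the smallest p that test can give is 0.1, so no pair could pass. HIST2H2BE minus HIST2H2AC was -2.66, -2.66 and -2.89 in DMSO and -1.40, -1.27 and -1.16 in PTC-028, an increase of 1.46 with no overlap (exact permutation p = 0.1, adjusted over 11 pairs 0.22). HIST1H2AC minus HIST1H2BC increased by 1.11 and HIST1H2BJ minus HIST1H2AG by 0.85, each without overlap (exact permutation p = 0.1, adjusted 0.22). HIST3H2A minus HIST3H2BB increased by 0.46 without overlap on this scale, where the pseudocount of 1 compresses a gene below 1 TPM. HIST1H2BK minus HIST1H2AH increased by 0.95 with overlapping groups (exact permutation p = 0.2, adjusted 0.314). These 5 pairs hold a gene that passed, which largely fixes the sign of their difference. Of the 6 other pairs, HIST1H2AM minus HIST1H2BO did not overlap either, at 0.79, 0.58 and 0.76 in DMSO and 0.23, -0.47 and 0.51 in PTC-028 (exact permutation p = 0.1, adjusted 0.22), and it was named after its values were seen.

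**Figure D5:**
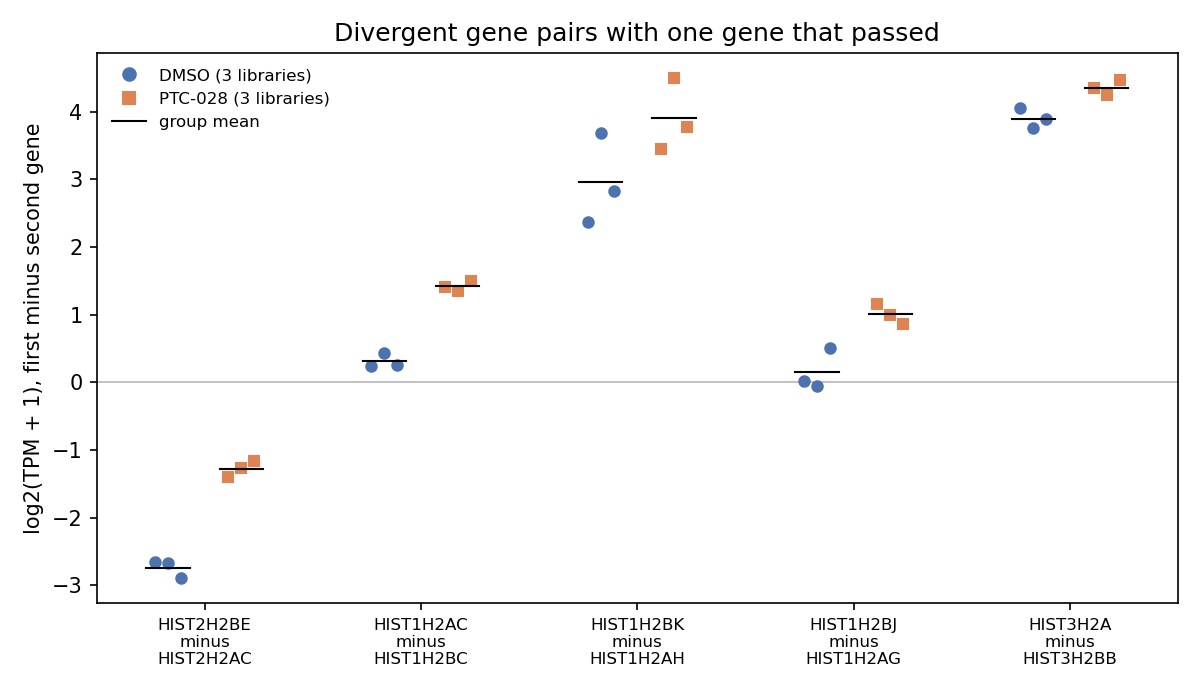
Difference in log2(TPM + 1) between the genes of each head-to-head pair in which a gene passed, with a circle for each DMSO library, a square for each PTC-028 library and a line at each group mean. In 4 pairs all PTC-028 libraries lie above all DMSO libraries, and HIST1H2BK minus HIST1H2AH overlaps.

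Some low values moved in visible steps. Of 7 H3 members with a single model of 411 bases, 6 (HIST1H3A, HIST1H3B, HIST1H3C, HIST1H3F, HIST1H3I and HIST2H3D) had TPM in each library that were whole multiples of a common step, to within 0.02 of a step. These 6 were chosen because they share it, and HIST1H3D, the other one, was at whole multiples in none of the 6 libraries. The step was the largest that fitted in each library, so step numbers cannot be compared between libraries. It lay between 0.249 and 0.507 TPM, and the multiples ran from 1 to 39 with a median of 13. In DMSO replicate 3 it was 0.507 TPM for these H3 genes and 0.308 TPM for the H2B genes below. In DMSO replicate 1 these steps were 0.249 and 0.304 TPM. HIST1H3F was at 39, 25 and 14 steps in DMSO and 22, 18 and 14 in PTC-028. Its 14 steps were 7.10 TPM in DMSO replicate 3 and 3.86 TPM in PTC-028 replicate 3. Of 5 H2B members with a single model of 381 bases, 4 shared a step in the same way, and HIST1H2BK was at whole multiples of it in 4 of the 6 libraries. A step may stand for 1 counted read or for several, which the sources used here do not say.

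Factors that make and process histone mRNA were examined as a list of 38 genes, 35 of which were in the table and tested. Of these, 3 fell and none rose, with a median log2 fold change of -0.04. An unadjusted p under 0.05 was reached by 10, without the share over all genes tested to set beside it. SLBP, which binds the stem-loop, went down from 87.4 ± 1.21 TPM to 61.6 ± 2.21 TPM with SD over 3 libraries (limma adjusted p = 0.00509), the opposite direction to the 10 histone genes. CDK2, the kinase that with cyclin E drives histone transcription at the start of S phase, fell from 151 ± 10.3 to 99.5 ± 6.23 TPM (limma adjusted p = 0.00570). CCNE2, which encodes cyclin E2, fell from 20.6 ± 2.95 to 10.7 ± 1.74 TPM (limma adjusted p = 0.0213). CCNE2 did not pass when replicate 1 or 2 of either group was left out. NPAT, the cofactor that CDK2 phosphorylates at histone loci, was at 10.6 ± 1.11 and 10.2 ± 0.922 TPM and CASP8AP2, a factor of histone RNA processing, at 25.5 ± 4.78 and 20.2 ± 1.63 TPM, and neither passed. NPAT and CASP8AP2 were named after their values were seen.

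Histone variant genes outside the clusters were set beside them, most of which give polyadenylated mRNA, and 11 of 12 listed were in the table. Of these, H1F0 rose and H2AFZ and H2AFX fell, with a median log2 fold change of -0.03. H1F0, a linker histone gene known from resting and differentiated cells, rose from 81.0 ± 2.06 TPM to 150.4 ± 6.62 TPM with SD over 3 libraries (limma adjusted p = 0.000573). H2AFZ, which encodes a variant H2A found at promoters, fell from 1089 ± 22.3 to 865 ± 24.6 TPM (limma adjusted p = 0.00570). H2AFX, the variant that is phosphorylated at DNA breaks and whose gene also gives stem-loop mRNA, fell from 275 ± 28.7 to 208 ± 4.43 TPM (limma adjusted p = 0.0350). H2AFX missed the threshold under median ratio scaling, nor when DMSO replicate 1 or any PTC-028 library was left out. The summed TPM of this list, between 7131 and 7718, was more than 10 times that of the clustered genes in every library. The difference in response between this list and the clustered genes was not tested.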

How the data were processed

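The authors deposited TPM per gene for 6 poly(A)-selected libraries, per the file headers and the labels' protocols. Per the submitters' processing notes the build was GRCh38. No aligner, quantifier, annotation or strand setting is given in the sources used here. The table had 23555 rows. Rows that shared a symbol were summed (1193 rows, none of them a member), except 29 whose symbol had become a date. The members and lists were chosen with earlier results of these data known.

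The test was limma (version 3.58.1, R 4.3.3) applied to log2(TPM + 1) of genes reaching 1 TPM in 3 or more libraries. The model held treatment alone, with eBayes and its trend option. The p-values are 2-sided and were adjusted by the Benjamini-Hochberg method across every gene in the fit. Errors are SE for log2 fold changes and SD for TPM. The fit was run on values simulated as normal around the means and spreads of these data, with results not given here. That checks the code and not whether the model suits TPM values. Positions and transcript models came from GENCODE 29, matched by identifier for 67 members, and promoters from RefSeq, matched by Entrez gene ID.

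Genes named are the members that passed, the 3 most abundant of each class, the 3 lowest log2 fold changes, head-to-head neighbours of members that passed, and up to 4 genes of each companion list. Others are said to have been chosen after their values were seen. HIST2H2BA, HIST2H3DP1, HIST3H2BA, HIST2H2BC, HIST1H3E, HIST1H2BE, HIST1H2BN, HIST1H4H and the genes of the step comparison are named for annotation or length.

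Alternatives were pseudocounts of 0.1 and 5, no filter, a minimum of 5 TPM, scaling by median ratios or by quantiles, no trend, a replicate block, unsummed rows and the removal of each library.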

Additional observations from a re-analysis of the deposited data

How the results depend on the processing

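In all 15 alternatives HIST1H2BK, HIST1H2AC and HIST2H2BE passed as higher. Without the filter, HIST2H2AA4, HIST1H2BD, HIST1H1C, HIST1H4I, HIST2H4B and HIST1H2BJ did not pass. Without a trend, HIST1H4I and HIST2H4B did not pass. CCNE2 did not pass without the filter, without a trend or with the replicate block. The count of members that rose, 10, was 4 without a filter on low values and between 4 and 10 with 1 library left out, and was between 8 and 10 under the other alternatives except the block. The count that fell, 0, was between 0 and 1 with 1 library left out, the 1 being HIST1H4K without PTC-028 replicate 3. With the replicate number as a block, 5 members rose, and HIST1H2BD, HIST1H1C, HIST1H4I, HIST2H4B and HIST1H2BJ did not pass. Same-numbered libraries had correlations of 0.0529, -0.0147 and -0.117 between their deviations from the group means. These values show no strong shared deviation, but they cannot tell whether same-numbered libraries were handled together. The median log2 fold change of tested members, 0.38, was 0.17 with a pseudocount of 5 and 0.68 at a minimum TPM of 5, where 21 members were tested, and between 0.33 and 0.41 with 1 library left out. The count of replacement variants that fell, 2, was 1 without the filter, under median ratio scaling and with the block, 0 without a trend, 3 after quantile normalisation and between 1 and 2 with 1 library left out. Some genes that did not pass changed sign. The log2 fold change of HIST1H2BH was -0.0071 under median ratio scaling and -0.041 after quantile normalisation, and between -0.079 and 0.098 with 1 library left out. That of HIST1H2BC was -0.055 after quantile normalisation and between -0.045 and 0.108 with 1 library left out. With 1 library left out, HIST1H3J ranged from -0.10 to 0.56, HIST1H4A from -1.06 to 0.26 and HIST1H2AH from -0.45 to 0.19. The cause of these changes was not tested. TPM keeps no depth, so counting error could not be given for the members.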
